A study of Rattus norvegicus with 4 samples.

Results

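The genes described here are 6 genes of zinc binding and zinc transport in rat soleus muscle: Mt1 and Mt3, which encode metallothioneins, Mtf1, which encodes the zinc-sensing transcription factor, Slc30a1 and Slc30a2, which encode zinc exporters of the ZnT family, and Slc39a14, which encodes a zinc importer of the ZIP family. They were selected on their signals on these 4 arrays, as a list of symbols drawn up with the differences between the groups in view, and found by matching the accession printed for each probe to a gene symbol. All 6 were found among the 26633 genes and transcripts of the array. Because the same signals chose them, their values are a description. The other 21 metallothionein, ZnT and ZIP genes found on the array are set beside them.

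Each of the 4 groups was 1 one-colour array, on which RNA of 6 soleus muscles was mixed. The soleus is a calf muscle of mostly slow fibres, and all rats were male. The rats of the normal and the regenerated group were 16 weeks old, and regenerated muscle was collected 8 weeks after an injection labelled CTX. The labels do not expand CTX; in work on muscle regeneration it commonly means cardiotoxin, which kills fibres and is followed by regrowth. Overloaded muscle, labelled as hypertrophied, and regenerated overloaded muscle, which was both injected and loaded, were from animals 18 weeks old. The titles of both regenerated groups carry an L and those of the other groups an R, which the labels do not explain. How the load was raised, how long after the injection the regenerated overloaded muscle was taken, and whether muscles of different groups came from the same rats are not stated. With n = 1 in each group there is no replicate check and no test between groups. The errors given are technical: they come from copies of a probe printed on one array and do not hold the spread between animals.

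The arrays lay on 1 slide, with normal and regenerated muscle in row 1 and both overloaded groups in row 2, so that load, age and slide row cannot be told apart. Of all spots, 60.4% were well above background for normal muscle and between 68.1% and 70.6% for the others. Precision is limited by having 1 array a group. Signals are given as scaled intensity: the scanner's processed signal multiplied by 1.14 (normal), 1.01 (regenerated), 0.916 (overloaded) and 0.951 (regenerated overloaded), which makes the arrays' 75th percentiles equal. After this scaling the median difference, over genes above background in both groups compared, was -0.12 on the log2 scale for regenerated minus normal muscle and -0.13 for overloaded minus normal muscle (between -0.20 and 0.02, and between -0.24 and 0.05, over the other scalings), and within 0.02 of zero for the other comparisons. The slow-fibre markers Myh7 and Tnni1 were above background on every array.

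Metallothioneins are small cysteine-rich proteins that bind zinc and copper and buffer them inside the cell. When free zinc rises, the zinc-finger protein MTF1 moves to the nucleus and binds metal response elements in the promoters of metallothionein genes and of Slc30a1, so that zinc is bound and exported. Metallothionein transcripts are also known to rise in skeletal muscle with glucocorticoids, cytokines and wasting.

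In the reference table (RefSeq, build GRCr8), Mt1, Mt2A, Mt3 and Mt4 are consecutive genes on chromosome 19. Their promoters, 250 bases before to 50 after the start of each gene, are shown because the signals of 3 of the 4 neighbours were highest on the same array, whereas the signal of Mt4 was not well above background on any array. Capitals mark matches on either strand to the 7-letter core of the metal response element, searched as TGCACNC and TGCGCNC; sequences run 5′ to 3′ along the gene.
Mt1, chr19:10832926-10833225, minus strand: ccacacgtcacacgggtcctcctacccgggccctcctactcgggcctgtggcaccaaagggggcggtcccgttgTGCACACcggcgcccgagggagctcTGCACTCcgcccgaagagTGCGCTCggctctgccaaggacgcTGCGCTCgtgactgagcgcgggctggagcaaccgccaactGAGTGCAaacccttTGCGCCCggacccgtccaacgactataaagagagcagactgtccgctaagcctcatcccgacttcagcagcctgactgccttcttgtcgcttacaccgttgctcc
Mt2A, chr19:10838659-10838958, minus strand: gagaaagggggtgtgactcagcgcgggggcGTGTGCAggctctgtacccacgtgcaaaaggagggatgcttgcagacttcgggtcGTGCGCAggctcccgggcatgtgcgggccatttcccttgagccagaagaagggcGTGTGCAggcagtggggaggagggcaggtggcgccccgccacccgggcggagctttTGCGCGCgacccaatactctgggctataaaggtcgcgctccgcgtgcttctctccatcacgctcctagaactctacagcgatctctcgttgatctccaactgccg
Mt3, chr19:10856031-10856330, minus strand: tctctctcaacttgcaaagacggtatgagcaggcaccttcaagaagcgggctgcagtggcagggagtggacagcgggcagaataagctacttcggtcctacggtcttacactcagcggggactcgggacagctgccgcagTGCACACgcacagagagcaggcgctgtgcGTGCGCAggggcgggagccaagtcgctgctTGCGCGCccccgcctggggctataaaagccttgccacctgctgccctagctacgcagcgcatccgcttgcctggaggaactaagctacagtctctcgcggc
Mt4, chr19:10871782-10872081, minus strand: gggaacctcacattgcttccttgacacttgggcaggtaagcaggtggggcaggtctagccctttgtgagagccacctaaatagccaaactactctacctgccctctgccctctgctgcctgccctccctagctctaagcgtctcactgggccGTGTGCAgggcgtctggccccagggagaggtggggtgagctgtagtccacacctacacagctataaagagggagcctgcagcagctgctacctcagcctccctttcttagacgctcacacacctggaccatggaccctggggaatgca

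The promoter of Mt1 held 6 matches, 5 of them on the gene's own strand, and the most distant began 176 bases before the start. The promoter of Mt2A held 4 matches, that of Mt3 3 and that of Mt4 1. Of 33469 promoters of the same length, 24.2% held at least 1 match, 1.68% at least 3, 0.439% at least 4 and 0.0388% at least 6. Neighbouring matches overlapped in none of the 4 sequences. Slc30a1 and Mtf1 held 2 matches each (6.36% of promoters hold as many). The first of the 2 promoters listed for Slc30a2 held 3 and the second none. Other family genes held as many as Mt2A and Mt3: both promoters listed for Slc39a7 held 4, some overlapping, and that of Slc30a4 held 3. Slc39a14 had no entry. A match is a run of letters in this window and was not tested for binding of MTF1.

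Mt3 had the widest range of the members. It encodes a metallothionein best known from the brain, where it was first described as a growth inhibitory factor. Its 1 probe was printed as 2 spots, which read 393 and 399 scaled intensity units in normal muscle, 498 and 496 in regenerated muscle, 1230.4 and 1238 in overloaded muscle, and 2529 and 2466 in regenerated overloaded muscle. The spots of a group lay close together and those of different groups did not overlap, with regenerated muscle slightly above normal muscle and both loaded groups far above it.

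In overloaded muscle Mt3 was 3.12-fold higher than in normal muscle (log2 difference 1.64, technical SE 0.073), and 37 of 9146 genes with a symbol above background on both arrays differed more in that direction. In regenerated overloaded muscle it was 5.02-fold higher than in regenerated muscle (log2 difference 2.33, technical SE 0.061), the third highest difference among 10178 genes. The comparison of both loaded groups gave a 2.02-fold higher signal after earlier injury (log2 difference 1.02, technical SE 0.055), and that of the unloaded groups a 1.26-fold higher one (0.33, technical SE 0.077). The value of 2.02 sits at the 2-fold limit, and it was 1.97-fold at its lowest over the other ways of processing. With the reported value included, 9 of the 13 values reached 2-fold. Some of these repeat the reported value by construction, because Mt3 has 1 probe of 2 spots, above background on all arrays. Those are the mean over probes, both changes of the background filter, and leaving out probes printed once. The tally is therefore no measure of how firm the call is.

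**Figure D1:**
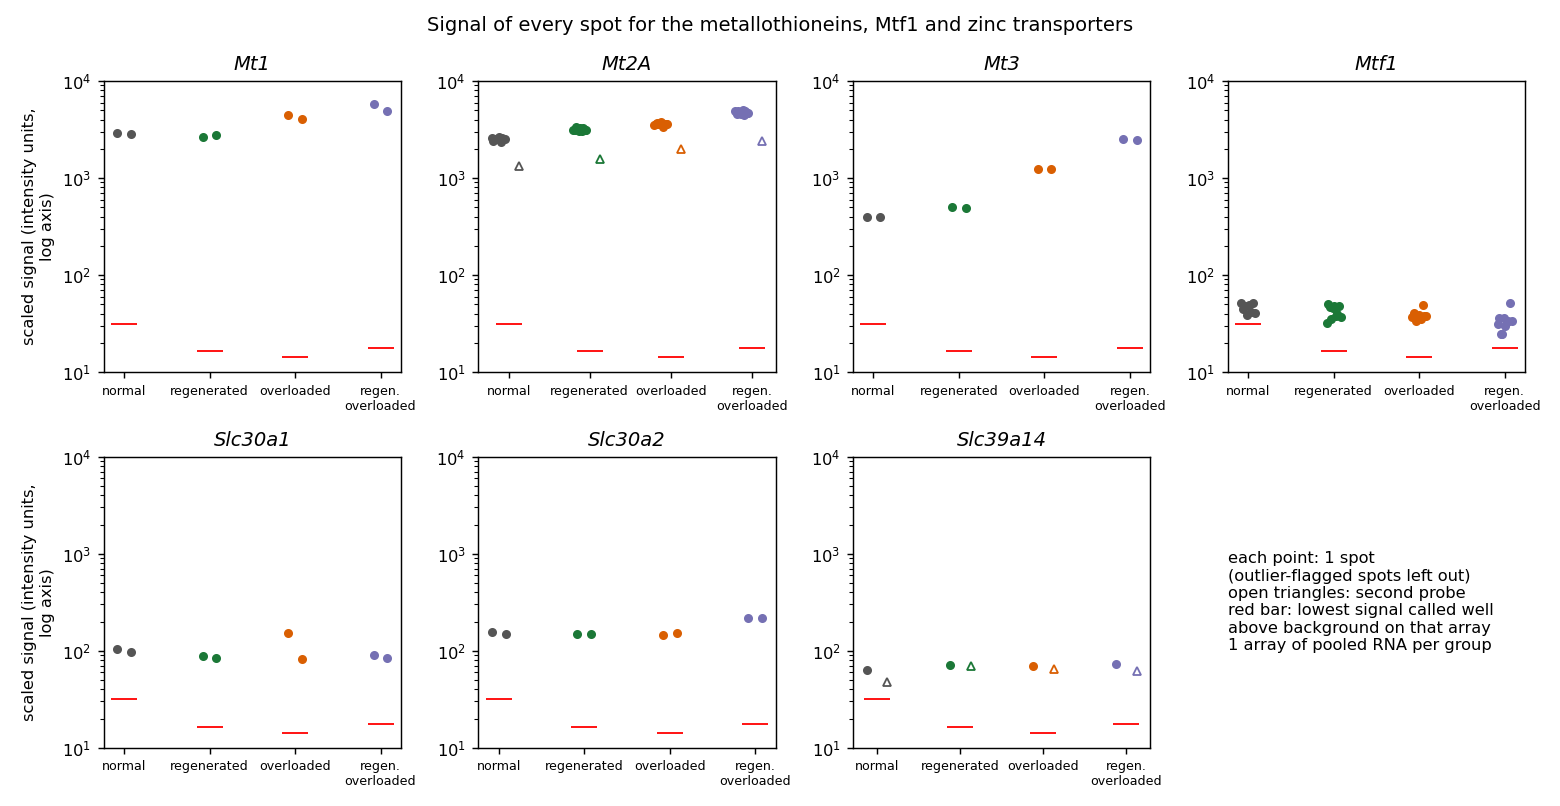
Scaled signal of every spot without an outlier flag (intensity units, log axis) for Mt1, Mt2A, Mt3, Mtf1, Slc30a1, Slc30a2 and Slc39a14 on the 4 arrays, with red bars at each array's lowest signal flagged as above background. The Mt3 spots step up from 393 in normal muscle to 2529 in regenerated overloaded muscle, whereas the Mtf1 spots shown lie between 24.8 and 51.4 on all arrays (heights are not comparable between probes).

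Mt1 encodes a metallothionein made in most tissues. Its 2 spots read 2943 and 2826 in normal muscle, 2678 and 2758 in regenerated muscle, 4482 and 4054 in overloaded muscle, and 5803 and 4959 in regenerated overloaded muscle. Both loaded groups were higher than both unloaded groups on every spot, and the spots of normal and regenerated muscle differed little. The difference was 1.48-fold for overloaded against normal muscle (log2 0.56, technical SE 0.054) and 1.97-fold for regenerated overloaded against regenerated muscle (0.98, technical SE 0.054), just under 2-fold; 4 of 12 alternatives put it at or above 2-fold, up to 2.07-fold. For regenerated against normal muscle the log2 difference was -0.09 (technical SE 0.056), with the opposite sign in 4 of 12 alternatives. The 2 loaded groups differed 1.26-fold, with the higher signal after earlier injury (log2 0.33, technical SE 0.052). Near-identical Mt1 pseudogenes (Mt1-ps1, Mt1-ps3 and Mt1-ps4) are listed in the reference table, and whether the probe tells them from Mt1 was not checked.

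Mt2A, the neighbour of Mt1 and no member of the list, encodes the other metallothionein made in most tissues. Over the 10 spots of its brighter probe the lowest, median and highest signals were 2347, 2539 and 2652 in normal muscle, 3030.2, 3147 and 3396 in regenerated muscle, 3320.0, 3611 and 3797 in overloaded muscle, and 4493, 4679 and 5032 in regenerated overloaded muscle. The spots of regenerated muscle lay above all those of normal muscle, which was not so for Mt1, and their range overlapped that of overloaded muscle between 3320.0 and 3396. The log2 differences were 0.34 for regenerated minus normal (technical SE 0.025), 0.52 for overloaded minus normal (0.024), 0.58 for regenerated overloaded minus regenerated (0.024) and 0.40 for regenerated overloaded minus overloaded muscle (0.023), none of them 2-fold. A second probe of 1 spot gave 0.26, 0.60, 0.62 and 0.28 for the same 4 differences.

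The metallothioneins differed between groups by unequal amounts, which can be read within each array without any scaling between arrays. The Mt3 difference exceeded that of Mt1 by 1.08 on the log2 scale (technical SE 0.091) for overloaded against normal muscle and by 1.35 (0.081) for regenerated overloaded against regenerated muscle. Against Mt2A these excesses were 1.12 (0.077) and 1.75 (0.066). In the unloaded muscles Mt3 and Mt2A differed by nearly the same amount (-0.01, technical SE 0.081), and Mt2A exceeded Mt1 by 0.42 (0.062). The Mt4 probe was not well above background on any array, so that no difference is given for it.

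**Figure D2:**
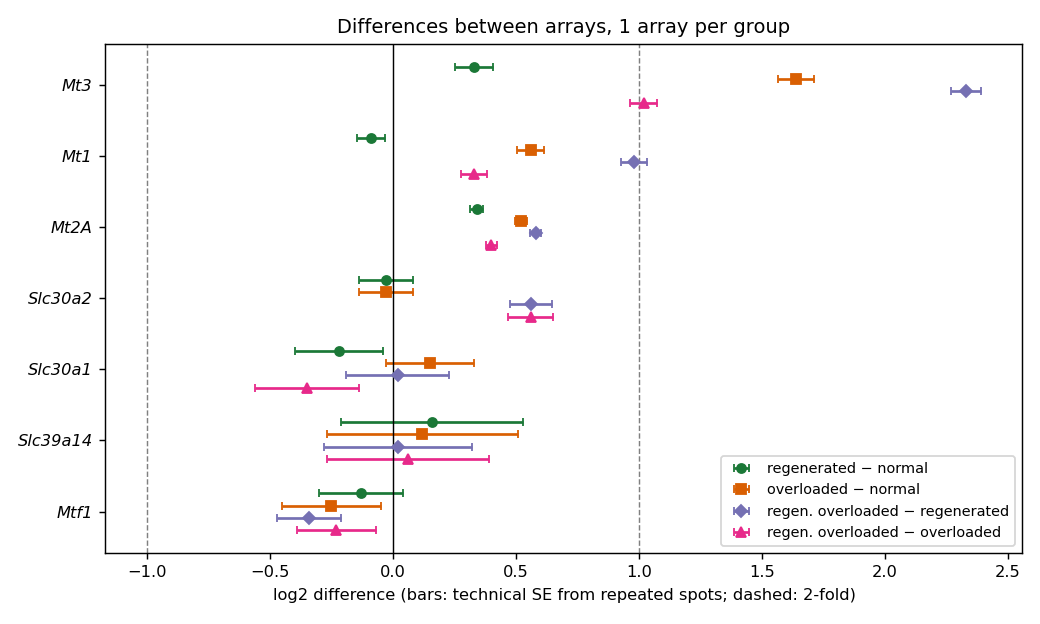
Log2 differences in scaled signal of the 6 members and Mt2A in the 4 comparisons, with technical SE from repeated spots as bars and dashed lines at 2-fold. Mt3 lies at 1.64 and 2.33 in the overload comparisons, Mt1 at 0.56 and 0.98, and Mtf1 below 0 in all 4, though above 0 for regenerated minus normal muscle in 2 of 12 alternatives.

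Mtf1 encodes the zinc sensor itself, which is controlled mainly through its location and activity rather than its transcript level. Its probe was printed 10 times; over the spots without an outlier flag the lowest, median and highest signals were 38.6, 46.7 and 51.2 in normal muscle (8 spots), 31.9, 42.6 and 50.8 in regenerated muscle, 33.9, 37.8 and 48.7 in overloaded muscle (9 spots), and 24.8, 33.1 and 51.4 in regenerated overloaded muscle. The ranges overlapped between all groups. These signals are close to the background: the lowest signal flagged as above it was 31.4 scaled units on the normal array and 14.3 to 17.7 on the others, and 1 Mtf1 spot of 40.3 on the normal array was not flagged. The log2 differences were -0.13 (technical SE 0.17; above 0 in 2 of 12 alternatives) for regenerated minus normal, -0.25 (0.20) for overloaded minus normal, -0.34 (0.13) for regenerated overloaded minus regenerated and -0.23 (0.16) for regenerated overloaded minus overloaded muscle.

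Slc30a1 encodes ZnT1, the exporter of the plasma membrane and a target gene of MTF1. Its 2 spots read 103 and 97.5 in normal muscle, 89.3 and 83.6 in regenerated muscle, 151 and 82.7 in overloaded muscle, and 90.4 and 84.8 in regenerated overloaded muscle. The overloaded value rests on spots that disagree, 1 of them above and 1 below both spots of normal muscle. The log2 difference was 0.15 (technical SE 0.18) for overloaded minus normal and 0.02 (0.21; below 0 in 3 of 12 alternatives) for regenerated overloaded minus regenerated muscle. It was -0.22 (0.18) for regenerated minus normal and -0.35 (0.21) for regenerated overloaded minus overloaded muscle.

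Slc30a2 encodes ZnT2, a transporter that loads zinc into vesicles and is best known from the mammary gland. Its 2 spots read 155 and 148 in normal muscle, 149.75 and 148 in regenerated muscle, 145 and 154 in overloaded muscle, and 219 and 219.5 in regenerated overloaded muscle. Regenerated overloaded muscle stood above the others on both spots, and the spots of the other 3 groups overlapped. The difference was 1.48-fold against regenerated muscle (log2 0.56, technical SE 0.085) and 1.47-fold against overloaded muscle (0.56, technical SE 0.093), under 2-fold in both. Overloaded minus normal and regenerated minus normal muscle were both -0.03 (technical SE 0.11 each), with the sign turned in 2 of 12 alternatives for each.

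Slc39a14 encodes ZIP14, an importer of zinc, iron and manganese that rises in the liver with interleukin-6. It was read from 2 probes of 1 spot each. The brighter gave 64.0, 71.5, 69.6 and 72.6 scaled units, with the groups in the order used for Mt3, and the other 47.4, 68.8, 64.3 and 61.3. Normal muscle was lowest on both probes. Regenerated minus normal muscle was 0.16 (technical SE 0.37) on the first probe and 0.54 (0.47) on the second. Regenerated overloaded minus regenerated muscle was 0.02 (0.30) on the first, with the sign turned in 4 of 11 alternatives, and -0.17 (0.30) on the second. These last values are smaller than their technical errors, so that no direction is read for load after injection. Overloaded minus normal muscle was 0.12 (0.39) on the first probe, with the sign turned in 2 of 11 alternatives, and 0.44 (0.49) on the second.

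Counted over the 6 members, none was 2-fold or more different between regenerated and normal muscle, where 1.93% of 16911 measured genes and transcripts were (1.25% higher and 0.674% lower in regenerated muscle). In each of the other comparisons 1 of 6 was, Mt3, against a background of 3.18% of 17308 for overloaded and normal muscle (2.42% higher, 0.763% lower), 1.99% of 17208 for regenerated overloaded and regenerated muscle (1.56% higher, 0.43% lower), and 1.71% of 17493 for regenerated overloaded and overloaded muscle (1.03% higher, 0.68% lower). Because Mt3 was listed with these signals known, nothing is read from these counts. All 6 members were measured in every comparison.

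**Figure D3:**
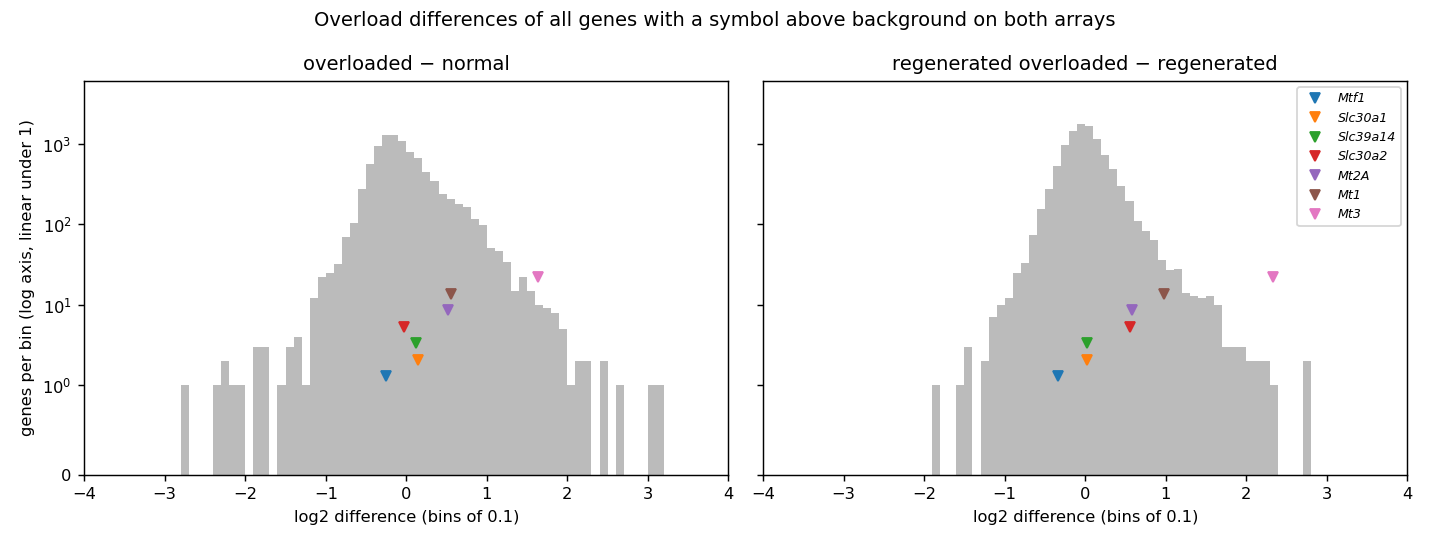
Histogram of log2 differences (bins of 0.1, gene counts on a log axis) of all genes with a symbol above background on both arrays, for overload of normal muscle and of regenerated muscle; triangles mark the members and Mt2A at their difference, and their height has no meaning. Mt3 lies in the upper tail in both panels, at 1.64 and 2.33, and the members other than Mt3 and Mt1 lie between -0.34 and 0.56.

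**Figure D4:**
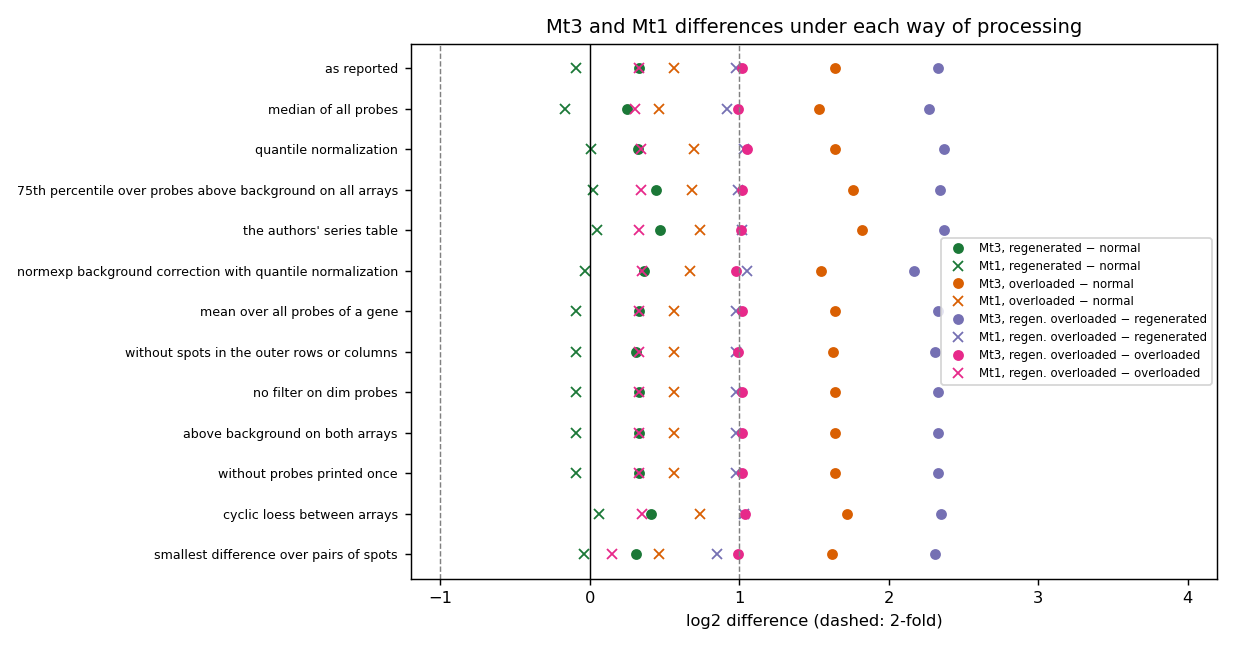
Log2 differences of Mt3 (circles) and Mt1 (crosses) in the 4 comparisons under the reported processing and 12 alternatives, with dashed lines at 2-fold. Mt3 stays between 2.17 and 2.37 for regenerated overloaded minus regenerated muscle, and lies between 0.98 and 1.05, on both sides of 2-fold, for regenerated overloaded minus overloaded muscle.

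The overload differences of the members were also set against each other. The overload difference in regenerated muscle minus that in normal muscle was 0.69 for Mt3 (technical SE 0.095), 0.59 for Slc30a2 (0.14) and 0.42 for Mt1 (0.077), and 1.14%, 1.56% and 3.88% of 9129 genes above background on all 4 arrays had a larger value. For Mtf1 it was -0.10 (0.24), for Slc30a1 -0.13 (0.27) and for Slc39a14 -0.10 (0.49), each smaller than its technical error, and the sign turned in 2 of 9 alternatives for Mtf1 and 1 of 8 for Slc39a14. The median over all genes was 0.087. Mt2A had 0.06 (0.034), below 0 in 5 of 9 alternatives. None of the 6 members reached 2-fold in this measure. The share of all genes that did was not counted, so nothing is read from this.

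Among the zinc exporters, all 10 Slc30a genes were found and 8 were measured; Slc30a8, known from pancreatic islets, and Slc30a10 were not well above background on any array. None of the 8 was 2-fold different in any comparison. The medians of their log2 differences were -0.02, 0.01, 0.08 and 0.08 for regenerated minus normal, overloaded minus normal, regenerated overloaded minus regenerated and regenerated overloaded minus overloaded muscle, beside -0.07, -0.05, -0.02 and -0.01 over all measured genes. Slc30a4, which moves zinc into endosomes, had the highest difference for regenerated minus normal muscle, 0.31 (technical SE 0.10), and 0.40 (0.093) for regenerated overloaded minus overloaded muscle.

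Among the zinc importers, 12 of the 14 Slc39a genes on the list were matched and 10 measured. Of these, 1 passed 2-fold, in regenerated against normal muscle (1.93% of all measured genes did) and in overloaded against normal muscle (3.18%). Slc39a8, which encodes ZIP8, the closest relative of ZIP14, read 31.8 and 28.9 in normal muscle, where neither spot was well above background, 72.6 and 79.2 in regenerated muscle, 65.7 and 62.7 in overloaded muscle, and 79.9 and 85.1 in regenerated overloaded muscle. Set against the lowest signal flagged as above background on the normal array (31.4), it was at least 2.41-fold higher in regenerated and at least 2.04-fold higher in overloaded than in normal muscle. These bounds hold for that limit and this background correction: an Mtf1 spot of 40.3 went unflagged on the same array, and with normexp the differences were 1.47-fold and 1.31-fold. The first was past 2-fold in 11 of 12 values and the second in 8 of 12, the reported ones included. Fewer spots were above background on the normal array than on the others (60.4%), and the part of this in the result was not tested. Slc39a6, which encodes the importer ZIP6, read 83.0 and 91.7 in normal, 127 and 129 in regenerated, 167 and 181 in overloaded, and 184 and 208 in regenerated overloaded muscle. Its spots were higher in that order without overlap, and its log2 difference was 0.99 (technical SE 0.16) for overloaded minus normal and 0.61 (0.11) for regenerated overloaded minus regenerated muscle, under 2-fold. The medians of the 10 importers were 0.14, 0.11, 0.05 and 0.07 in the order above.

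**Figure D5:**
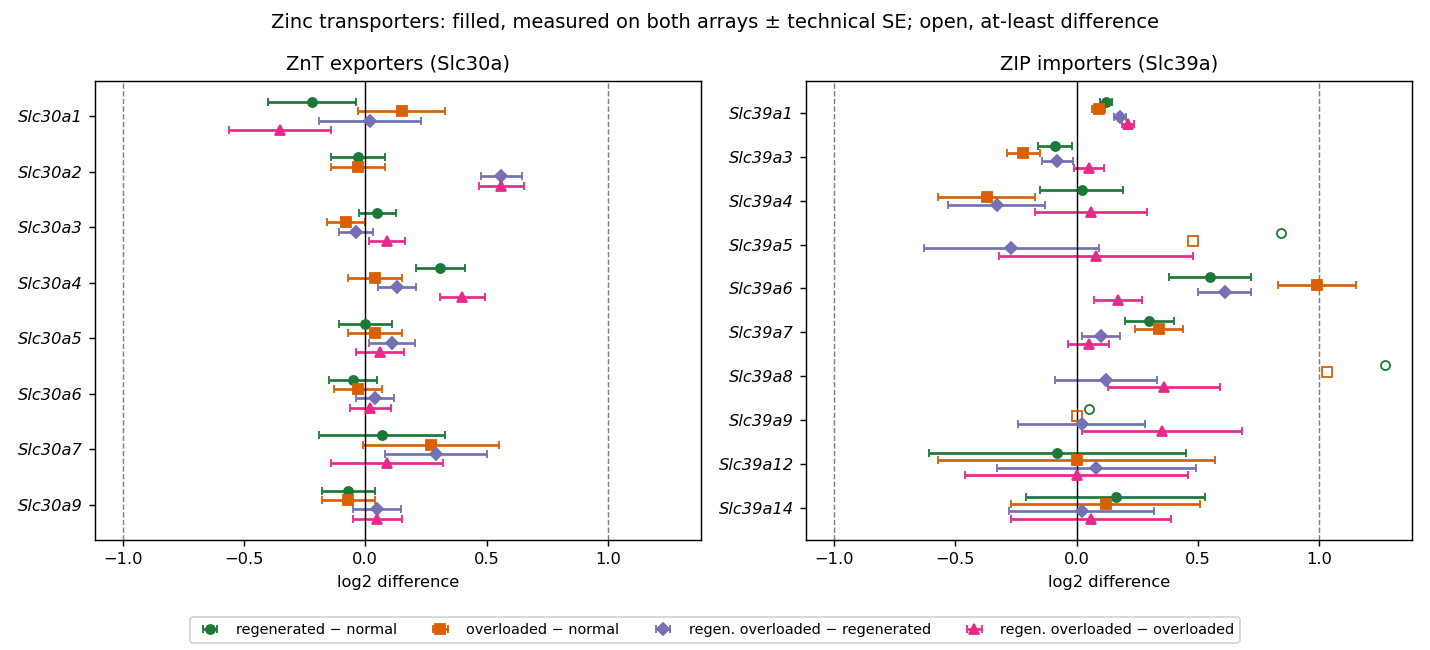
Log2 differences of the measured ZnT exporters (left) and ZIP importers (right) in the 4 comparisons, with technical SE as bars, open symbols for at-least differences and dashed lines at 2-fold. Slc39a8 alone lies past 2-fold, at 1.27 and 1.03, and Slc30a2 is at 0.56 in both comparisons that hold regenerated overloaded muscle.

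Lists of genes tied to known inducers of metallothioneins were set beside the members. In the glucocorticoid-responsive list 11 genes were measured; 1, Zbtb16 (-1.33), was 2-fold lower in overloaded than in normal muscle (0.763% of all measured genes were), and 2, Fkbp5 (-1.27) and Zbtb16 (-1.13), were lower in regenerated overloaded than in regenerated muscle (0.43% of all), with list medians of -0.31 and -0.51 on the log2 scale. None was 2-fold higher in any comparison. The list for the interleukin-6 family mixes ligands and receptors with response genes. Of its 8 measured genes, Il1b (interleukin-1 beta) was 2-fold higher in overloaded than in normal muscle (1.24, where 2.42% of all measured genes were higher). None was past 2-fold in the other comparisons. The list medians were 0.21 for regenerated minus normal and 0.05 for overloaded minus normal muscle. They were -0.20 for regenerated overloaded minus regenerated and 0.04 for regenerated overloaded minus overloaded muscle. Il6 was not well above background on any array. Il1b read 56.2, 102, 133 and 163 scaled units in normal, regenerated, overloaded and regenerated overloaded muscle.

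Markers of other cell types were read because Mt3 is best known from nervous tissue. Of 4 neuron and astrocyte markers found, Gfap, Snap25 and Slc1a2 were not well above background on any array, and Aqp4, which muscle fibres also make, read 588, 700.0, 331 and 257 in normal, regenerated, overloaded and regenerated overloaded muscle, an order opposite to that of Mt3 under load. The summed signal of the 6 fibroblast markers was 44847, 90828, 123270 and 156010 in the same order of groups, and is carried mostly by the collagens Col1a1 and Col3a1 and by Dcn. Of these markers 5 followed the order of Mt3 over the arrays, and Dcn did not (21071, 25356, 31342 and 30681). Some steps were small, as for Pdgfra in regenerated (1624) and overloaded muscle (1653). The share of all genes in this order, or in its reverse, was not counted. Nothing is therefore read from these counts, here or for the cell types below. Thy1 alone was not above background in normal muscle. The 6 macrophage markers summed to 2024, 3321, 3563 and 3878; 3 of them (Adgre1, Cd163 and Mrc1) followed the order of Mt3, Cd68 and Csf1r followed neither that order nor its reverse, and Itgam ran in reverse (99.5, 83.4, 71.4 and 66.8). The soleus fibre markers summed to 1723700, 1407100, 1383900 and 1287500, and 4 of 6 ran in reverse, Tnnt1 and Mb not. Past 2-fold higher in regenerated overloaded than in regenerated muscle were 2 of 3 tendon markers (Tnmd, log2 difference 1.62, and Comp, 1.22). So were 3 of 6 fibroblast markers (Col1a1, Lum and Thy1), beside 1.56% of all measured genes. Against overloaded muscle only Comp was (1.71, beside 1.03%). In overloaded against normal muscle, Col1a1, Col3a1, Lum, Thy1, Cd68 and Adgre1 were, beside 2.42%. In regenerated against normal muscle, Col1a1, Col3a1, Cd68 and the adipocyte markers Retn and Cfd were, beside 1.25%. Only Aqp4 was 2-fold lower, in regenerated overloaded against regenerated muscle (-1.44, beside 0.43%). The adipocyte markers summed to 8380, 18280, 12079 and 17322, mostly from Cfd, with Lep not above background on any array. Adipoq was lower in overloaded (751) than in normal muscle (914), whereas Retn and Cfd were higher. The Schwann cell markers summed to between 1586 and 2062, mostly from Mbp, which was lowest in regenerated overloaded muscle, where S100b was highest (281, 450.3, 414 and 548 over the groups). The endothelial markers summed to between 8883 and 9567, and none of the 5 was past 2-fold. The part of these cells in the Mt3 and Mt1 signals was not tested. In pooled muscle RNA, a change in the number of cells of a type and a change in RNA per cell cannot be told apart.

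The genes whose log2 values over the 4 arrays, centred on their mean, lay nearest to those of Mt3 were Crabp2, a retinoic acid binding protein (root mean square distance 0.15), the small GTPase Rab15 (0.17), Spon1, the matrix protein F-spondin (0.20), Uchl1 (0.28) and Fcrl2 (0.28), of 9128 genes searched. Crabp2 read 486, 654, 1463 and 2471 scaled units in normal, regenerated, overloaded and regenerated overloaded muscle. The nearest to Mt1 were H1f4 (0.079), Nes, the intermediate filament nestin (0.083), and Junb (0.084), and the nearest to Slc30a2 were Slc22a3 (0.042), Ggn (0.049) and S100a9 (0.058). The nearest single genes to Mtf1, Slc30a1 and Slc39a14 were Etfdh, Gabbr2 and Phf1; these members ranged by 0.48, 0.37 and 0.18 over the arrays, so that many genes lie near them. Likeness over 4 arrays is a description.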

How the data were processed

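Rat soleus RNA, pooled from 6 muscles a group, was labelled with Cy3 and hybridised to 1 Agilent array per group, per the labels' protocols. The deposited scanner files give for each spot a processed signal and raw median signals as intensities and 0/1 flags (other); per the file headers they come from Feature Extraction 11.5.1.1; version 10.10.1.1 is the one given in the submitters' processing notes. The series table deposited by the authors holds the processed intensity times 1 constant per array (2.14, 2.10, 1.95 and 2.02), on a linear, uncentred scale of unstated origin, with column medians of 182, 211.5, 222 and 226.

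Spots with an outlier flag (406 to 451 of 58717 per array) were left out, and none was saturated. The log2 signal was reduced by the array's log2 75th percentile, spots were averaged per probe, and the brightest probe by mean over the arrays stood for its gene. A probe was above background where over 50% of its spots carried the flag; a gene above background on 1 of 2 arrays is given as an at-least fold against the higher of its own signal and the lowest signal flagged on the other array. Genes are called at 2-fold. Technical SEs pool spot SDs over 20 bins of signal. Of 30367 probes, 18643 matched 15637 symbols by accession in the RefSeq table (GRCr8); the headers place probes on rn4, so probe coordinates are not used here. The code was run on simulated data with spot noise only and changes larger than 2-fold. That checks the arithmetic and does not hold the spread between arrays or animals. Scripts used Python 3.11.15 and, for normexp, quantile and loess scaling, limma 3.58.1.

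The members and lists were chosen with earlier results of these data known. Named beside the 6 members are list genes past 2-fold, the genes most alike over the arrays, and neighbours or family genes (Mt2A, Slc30a4, Slc39a6, Il6 and the cell type markers) chosen after their values were seen. Alternatives: 10 planned and 2 added after seeing the data (cyclic loess and the smallest difference between spots).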

Additional observations from a re-analysis of the deposited data

How the results depend on the processing

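Over 12 alternatives (11 for Slc39a14, which drops out without probes printed once), no member past 2-fold changed sign. The Mt3 difference lay between 1.53 and 1.82 for overloaded minus normal and between 2.17 and 2.37 for regenerated overloaded minus regenerated muscle, and Mt3 was past 2-fold in both under each. The count of members past 2-fold between regenerated overloaded and regenerated muscle was 2 rather than 1 under some settings, with Mt1 added. These were quantile normalization (1.98% of all measured genes past 2-fold), the authors' series table (2.1%), normexp (0.593%) and cyclic loess (2.07%). Between regenerated overloaded and overloaded muscle this count was 0 rather than 1 under the median scaling (1.71% of all measured genes) and normexp (0.349%). It was also 0 without spots in the outer 16 rows or columns (1.84%), and 1 of the 2 Mt3 spots lies there. The smallest difference between spots gave 0 as well, with no share over all genes counted. Mt3 lay between 0.98 and 1.05 in this comparison. Nothing is read from these counts of members. The cause was not tested. For the members, Mt2A, Slc39a6 and Slc39a8, 497 single values were recomputed. Of these, 446 moved by no more than a combined spot SD and 51 by more. Many of the 446 could not move. Both changes of the background filter repeat the value of a gene above background on all arrays. So do the mean over probes for a gene with 1 probe, and leaving out probes printed once for the other probes. The counts of alternatives given for single genes hold such repeats too. The combined SD is the root of the summed squares of the pooled spot SDs of the arrays compared, which is larger than the SD on any of them. Slc39a6 was past 2-fold for overloaded against normal muscle in 2 of 13 values (0.57 to 1.17). Over all genes, the calls, which numbered 326 (regenerated and normal), 550 (overloaded and normal), 343 (regenerated overloaded and regenerated) and 299 (regenerated overloaded and overloaded), became 116, 212, 102 and 61 with normexp, 191, 343, 189 and 127 without probes printed once, 200, 375, 227 and 144 with both arrays above background, and 2442, 5707, 1461 and 1438 with no filter on dim probes. The share of calls that were higher was 65.0% for regenerated against normal muscle (53.2% with median scaling, 76.2% with the percentile over probes above background on all arrays, 78.5% with the authors' table, 31.4% with no filter on dim probes) and 76.0% for overloaded against normal muscle (64.9%, 86.5%, 89.8% and 19.2%), so that most calls were lower with no filter. No paired analysis was possible because each group is 1 array. Signals of Mtf1, Slc39a14 and Slc39a8 lie near the background, which limits their precision.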

Other observations

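No gene of the lists for copper, iron and oxidative stress was 2-fold different in any comparison. Of all measured genes only 1.71% to 3.18% were, depending on the comparison, so that no call in lists this short is near that share. All 10 copper-handling genes were measured and none was 2-fold different in any comparison, with medians of -0.05, 0.03, 0.07 and 0.00 on the log2 scale for regenerated minus normal, overloaded minus normal, regenerated overloaded minus regenerated and regenerated overloaded minus overloaded muscle. Over all measured genes the medians were -0.07, -0.05, -0.02 and -0.01. Sod1, the copper-zinc superoxide dismutase, had -0.32, -0.28, 0.01 and -0.02. Of 12 iron-handling genes none was 2-fold different. Slc40a1, the iron exporter ferroportin, read 211, 408, 356 and 466 scaled intensity units in normal, regenerated, overloaded and regenerated overloaded muscle (log2 difference 0.95 for regenerated minus normal muscle), and Ftl1, the light chain of the iron store ferritin, had 0.73. Tfrc, the transferrin receptor, read 5154, 4602, 2914 and 3344, a log2 difference of -0.82 for overloaded minus normal muscle, and Tf, transferrin, had 0.86. Of 11 measured oxidative stress genes none was 2-fold different. Their median was -0.25 for overloaded minus normal muscle, with values from -0.56 to 0.61. For regenerated overloaded minus regenerated muscle the median was 0.01. Hmox1, the haem oxygenase that metals and oxidants induce, had 0.51 and 0.04 in these 2 comparisons, the first opposite in sign to the list median.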
